A study of Mus musculus with 142 samples.

Results

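Oligodendrocyte precursor cells (OPCs) from the brainstem of control mouse pups were compared after 2 days and after 1 day in differentiation medium. The comparison held 17 RNA-seq libraries in 2 of the 16 groups of the series, chosen by their labels as control brainstem OPC cultures at these 2 days, with 9 wells at day 2 and 8 wells at day 1. OPCs had been immunopanned on an antibody against the PDGF receptor alpha (PDGFRa), after endothelial cells and microglia were removed on a lectin-coated dish, from litters at P5 to P7. The labels spell these litters AMGFAP-Cre;K27M, and the study names the driver hGFAP-Cre. Brainstems were pooled by genotype, so a culture is a pool of pups. The control pups were littermates, and their label gives the genotype only as Control.

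Cells were expanded in a proliferation medium with forskolin, CNTF, neurotrophin-3 and PDGF (day 0 of the series) and then moved to a differentiation medium with forskolin, CNTF and thyroid hormone and without PDGF and neurotrophin-3. All wells of day 2 and day 1 were in the differentiation medium. RNA was taken from whole wells. The wells came from 3 cultures, numbered 38, 41 and 42. At day 2 the cultures were at passage 5, 4 and 8 with 3 wells each, and at day 1 at passage 7, 5 and 6 with 3, 3 and 2 wells. Every culture thus changed passage together with the day, and within a culture day and passage cannot be told apart. Culture 38 carried the batch label 3, and cultures 41 and 42 the label 4, so each batch held both days. Other groups used below are K27M brainstem (8 wells at day 2 and 9 at day 1), in which hGFAP-Cre had removed a stop cassette so that the H3f3a locus expresses H3.3 K27M, and control cultures of the dorsal telencephalon (9 wells at day 2 and 9 at day 1), cultured in the same media. The telencephalon wells carried the batch labels 1 and 2, so region cannot be told apart from batch, and they were at passages 1 to 4. The K27M brainstem wells carried the same batch labels as the control brainstem wells. They were at passages 2 to 6, with culture 41 at passage 2 on both days. The changed codon cannot be read from counts per transcript, so the genotype of the K27M wells was not checked here.

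OPCs divide in the presence of PDGF, which acts through PDGFRa and the ERK kinase cascade. When PDGF is withdrawn and thyroid hormone is given they leave the cell cycle. They pass through a short-lived committed state that loses PDGFRa and the proteoglycan NG2 and makes the receptor GPR17. They then become newly formed, premyelinating oligodendrocytes, which are marked by ENPP6 and make the structural proteins and the lipids of myelin. Myelin is rich in cholesterol and galactolipids, which oligodendrocytes synthesise themselves. In a dish without axons the cells put out membrane sheets in place of wrapped myelin.

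The 17 libraries held 27.1 to 60.9 M read pairs. The first day 2 well of culture 38 stood apart. Its median correlation with the other 16 libraries was 0.924, against 0.944 to 0.962 for the others, 40.6% of its counts came from the 7SL RNA Rn7s1, 45.2% came from protein-coding genes, and it had the lowest depth. The count of calls and several results are also given without it. Oligodendrocyte lineage genes marked every well. Olig2 had 302 to 405 CPM (depth-scaled counts, with TMM factors) in day 2 wells and 394 to 498 CPM in day 1 wells, and Sox10 157 to 207 CPM in day 2 wells and 113 to 230 CPM in day 1 wells. Of the other cell types, the endothelial gene Cldn5 had no read in any of the 17 libraries. Pecam1, also endothelial, had 0.113 to 0.316 CPM in day 2 wells and 0.135 to 0.350 CPM in day 1 wells. The fibroblast gene Col1a1 had at most 0.183 CPM. The microglial genes Aif1 and Csf1r had at most 0.0565 CPM and Cx3cr1 at most 0.0922 CPM. Of the astrocyte genes, Gfap had 10.0 to 54.2 CPM in day 2 wells and 5.29 to 15.4 CPM in day 1 wells, Aldh1l1 had 8.05 to 28.9 CPM in day 2 wells and 5.17 to 25.2 CPM in day 1 wells, and Gja1 had no more than 0.604 CPM in any well.

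Between the 2 days most of the transcriptome moved. Of 16607 genes tested, 10006 passed an adjusted p of 0.05 in edgeR's quasi-likelihood test with culture as a block, which is 60.3% of the genes. The count was 4922 higher at day 2, 29.6% of the genes, and 5084 lower, 30.6%. These shares are the background for every gene list below, together with the median log2 fold change of day 2 over day 1 across all genes, -0.02. Among the genes that passed, 1092 rose and 1453 fell by at least 2-fold, and 335 rose and 36 fell by at least 4-fold. The wells of the 2 days did not overlap in 2646 of the genes, 15.9% of those tested, with 1646 higher and 1000 lower at day 2. Because wells of a culture share their cells, the counts of each culture and day were also summed, which leaves 3 values a day. On the sums 7010 of 18979 genes passed, 36.9%, and 6620 genes passed on wells and on sums with the same sign (3483 higher, 3137 lower). Without the well that stood apart 9790 of the 10006 genes still passed with their sign, and with passage as a term in the model 9688. In these bulk libraries fewer cells of a type and less RNA per cell cannot be told apart.

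For single genes, the lowest, the median and the highest well of a day are given in that order in CPM, followed by the log2 fold change of day 2 over day 1 with its standard error. Adjusted p-values are those of edgeR's quasi-likelihood test.

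Genes of the OPC state were lower at day 2. Of the 30 OPC list genes, all of which were tested, 24 fell and 2 rose, with a median log2 fold change of -0.77. The summed level of the list was 4588 to 4812 CPM in day 2 wells and 6558 to 7824 CPM in day 1 wells, with no overlap. Pdgfra (ENSMUSG00000029231, chr5:75152292-75198215, plus strand, GRCm38), the receptor used for the panning, had 248, 340.4 and 560.4 CPM in day 2 wells and 750.5, 818 and 948 CPM in day 1 wells, -1.10 ± 0.11 on the log2 scale (adjusted p = 2.4e-07). Cspg4, which encodes NG2, had 56.7, 77.0 and 108 CPM at day 2 and 165, 208 and 380.4 CPM at day 1 (-1.53 ± 0.16). Every day 2 well lay below every day 1 well for these genes, and likewise for Ptprz1, a receptor-type phosphatase of OPCs (-1.36 ± 0.15), and for Pcdh15, a protocadherin of OPCs (-1.54 ± 0.11). The difference of Pdgfra was -0.58 within culture 38, -1.36 within culture 41 and -1.44 within culture 42. Against the direction of its list, Bcan, which encodes the matrix proteoglycan brevican, had 411, 839 and 1109.9 CPM in day 2 wells and 254, 303 and 410.1 CPM in day 1 wells and rose by 1.23 ± 0.11. Lhfpl3 did not pass (-0.09, adjusted p = 0.51), and its wells overlapped.

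**Figure D1:**
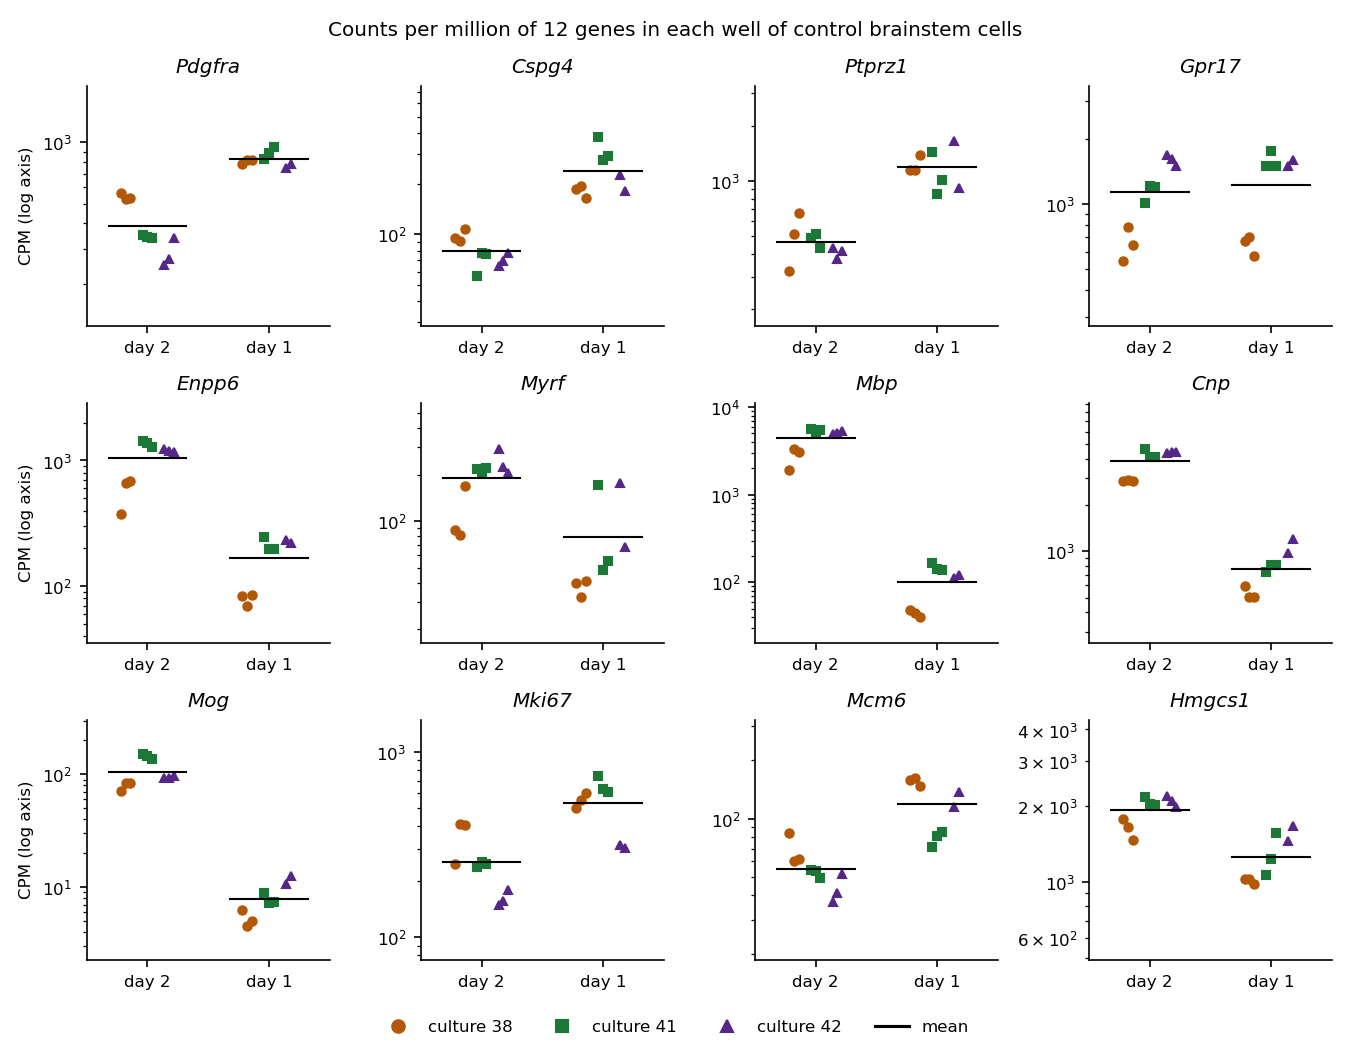
CPM of 12 genes on log axes, with a point for each well, the 9 day 2 wells left of the 8 day 1 wells, cultures 38, 41 and 42 by symbol, and a line at the mean. Pdgfra and Cspg4 sit lower and Enpp6, Cnp and Mbp higher in every day 2 well than in any day 1 well, while the wells of Gpr17 overlap.

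Genes of committed and newly formed oligodendrocytes were mostly higher at day 2. Of the 38 members of that list 30 rose and 5 fell, with a median of 1.67, and the median was 1.48, 1.79 and 1.57 within cultures 38, 41 and 42. Enpp6 (ENSMUSG00000038173, chr8:46986887-47096762, plus strand), a choline-specific phosphodiesterase that marks newly forming oligodendrocytes, had 379, 1181 and 1431 CPM in day 2 wells and 70.3, 198 and 244 CPM in day 1 wells, 2.66 ± 0.11 on the log2 scale (adjusted p = 3.2e-12), with no overlap. Fyn, the Src-family kinase that acts in process outgrowth and Mbp translation, had 512, 986 and 1062 CPM at day 2 and 259.7, 451 and 552 CPM at day 1 and rose by 1.00 ± 0.06. Its day 2 wells of culture 38 lay within the day 1 range. Tmem163, a zinc transporter, had 108, 277 and 355 CPM in day 2 wells against 2.29, 16.5 and 21.7 CPM in day 1 wells (4.51 ± 0.20). The membrane protein gene Cemip2 (3.81 ± 0.18) and the melanin pathway enzyme gene Dct (3.72 ± 0.28) rose as well, and neither overlapped between the days. Casr, the calcium-sensing receptor, had 561 reads over the day 2 wells and 3 over the day 1 wells.

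The list was not uniform. Gpr17, the orphan receptor of the committed state, had 543, 1193 and 1686 CPM in day 2 wells and 573, 1493 and 1756 CPM in day 1 wells, and the difference of -0.15 ± 0.10 did not pass (adjusted p = 0.19), though it did when culture 38 was left out (-0.27, adjusted p = 0.046). Neu4, a sialidase, did not pass either (-0.09, adjusted p = 0.44) and passed as lower without culture 38 (-0.25). Bmp4, a ligand that committed OPCs make, was among the 5 that fell, at 1.30, 4.40 and 4.99 CPM in day 2 wells and 2.96, 4.26 and 12.5 CPM in day 1 wells (-0.66 ± 0.19, adjusted p = 0.006). Its wells overlapped, its difference was -0.86, 0.10 and -1.37 within cultures 38, 41 and 42, and it did not pass on sums (adjusted p = 0.13) or without culture 42 (-0.34, adjusted p = 0.17).

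Genes of mature oligodendrocytes and myelin had the highest list median of all, 1.92. Of 46 members 41 passed the filter on low counts, and of these 35 rose and 2 fell (32 and 1 on sums). The 5 that the filter removed were Aspa, Klk6, Ppp1r14a, Evi2a and Ndrg1. Mbp, the basic protein that compacts the cytoplasmic side of myelin, had 1907, 4947 and 5565 CPM in day 2 wells and 40.2, 117 and 165 CPM in day 1 wells, a log2 fold change of 5.52 ± 0.15 (adjusted p = 1.5e-14). The wells of the days were far apart, and the rise was 5.93, 5.15 and 5.44 within cultures 38, 41 and 42.

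Cnp, an enzyme and cytoskeletal protein of non-compact myelin, had 2847, 4113 and 4601 CPM in day 2 wells and 504, 769.8 and 1199 CPM in day 1 wells (2.31 ± 0.08). Mag, the adhesion protein that faces the axon, had 695, 1061 and 1384 CPM at day 2 and 28.0, 59.9 and 84.1 CPM at day 1 (4.32 ± 0.15), and Mog, on the outer face of the sheath, 71.2, 92.7 and 152 CPM at day 2 and 4.49, 7.33 and 12.6 CPM at day 1 (3.75 ± 0.15). None of these overlapped between the days. Mobp (ENSMUSG00000032517, chr9:120149707-120181484, plus strand), a basic protein of compact myelin, was near absent at day 1, with 47.5, 97.2 and 220.4 CPM in day 2 wells against 0.167, 0.619 and 0.930 CPM in day 1 wells and 206 reads over all day 1 wells (7.49 ± 0.36, adjusted p = 1.2e-11). Within cultures its rise was 6.23, 7.26 and 9.51 in 38, 41 and 42. Mal, a proteolipid of late myelin, was still low, at 0.333, 0.791 and 1.30 CPM in day 2 wells and 0.115, 0.181 and 0.310 CPM in day 1 wells (2.05 ± 0.26). Among the 4 that did not pass were Sec14l5, which encodes a lipid-transfer protein (-0.19, adjusted p = 0.21), and the carbonic anhydrase gene Car2 (0.43, adjusted p = 0.099), whose difference was 0.89 and passed without culture 38. Sec14l5 passed as lower without that culture (-0.41).

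Among protein-coding genes with a mean of at least 5 CPM at either day, the same sign in every culture and a pass on wells and on sums, the 12 largest increases included Mbp and Mobp and held receptors for lysophospholipids. Lpar1, a receptor for lysophosphatidic acid, had 37.2, 78.6 and 136 CPM at day 2 and 0.179, 0.831 and 1.07 CPM at day 1 (6.87 ± 0.11, adjusted p = 1.0e-17). S1pr5, the sphingosine-1-phosphate receptor of oligodendrocytes, had 6.10, 20.2 and 30.0 CPM at day 2 and 0.239, 0.378 and 0.461 CPM at day 1 (5.51 ± 0.20). Wells of day 2 and day 1 were apart for each of the 12 genes. Tppp, a tubulin-polymerising protein of oligodendrocytes, had 941, 1795 and 2045 CPM in day 2 wells and 23.8, 46.6 and 59.3 CPM in day 1 wells (5.34 ± 0.10). Others were the membrane protein gene Tmem125 (7.78), the aromatic amino acid decarboxylase Ddc (6.16), the GTPase-activating protein Elmod1 (5.84), the phospholipid flippase Atp8b1 (5.77) and the secretase Bace2 (5.37).

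Transcription factors of the lineage split between the directions, 13 higher and 16 lower of 35 tested (7 and 11 without culture 41, and 8 and 10 on sums), with a median of -0.27. The largest rise was that of Nkx6-2, a homeodomain factor of maturing oligodendrocytes, with 12.9, 32.2 and 38.5 CPM in day 2 wells and 1.38, 2.65 and 12.5 CPM in day 1 wells (2.85 ± 0.26, adjusted p = 5.6e-08). The zinc finger genes St18 (2.47 ± 0.13) and Zfp536 (1.91 ± 0.14) followed, and none of these 3 overlapped between the days. Myrf, the membrane-bound factor that switches on myelin genes, had 81.4, 206 and 291 CPM in day 2 wells and 32.3, 51.5 and 176 CPM in day 1 wells (1.28 ± 0.25, adjusted p = 0.00029), with overlap. Tcf7l2 rose by 0.64 ± 0.21 (adjusted p = 0.015), but it did not pass without culture 38 (adjusted p = 0.13) or without culture 41 (adjusted p = 0.090). Zfp488, a partner of Olig2, rose by 0.50 ± 0.14 (adjusted p = 0.005) and did not pass without culture 41 (adjusted p = 0.073). The general lineage factors Sox10, at 157, 179 and 207 CPM in day 2 wells and 113, 181 and 229.7 CPM in day 1 wells, and Sox8 did not pass (0.11, adjusted p = 0.36, and 0.03, adjusted p = 0.68), Sox10 passing as higher without culture 41 (0.32).

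Genes of the G1/S transition and DNA replication fell almost without exception. Of 42 tested 41 were lower at day 2 and 0 higher, with a median of -0.98, and 40 were lower on sums. Within culture 38 alone 33 of the 42 were lower. Mcm6 (ENSMUSG00000026355, chr1:128331590-128359664, minus strand), a subunit of the replicative helicase, had 36.9, 53.5 and 83.9 CPM in day 2 wells and 71.0, 126 and 162 CPM in day 1 wells (-1.08 ± 0.12, adjusted p = 8.9e-07), with overlap at the edges of the ranges. Cdt1, which loads that helicase, had 5.24, 8.71 and 15.8 CPM at day 2 and 19.0, 21 and 24.3 CPM at day 1 (-1.30 ± 0.14) and no overlap. Ccne2, a cyclin of S phase entry (-1.42 ± 0.18), the methylation maintenance factor Uhrf1 (-1.29 ± 0.12) and the replication factor Mcm10 (-1.26 ± 0.12) fell alike, the last pair with no overlap of wells. The exception was Gins4, of the GINS complex of the helicase (0.30, adjusted p = 0.13). It had 61.3 CPM in the well that stood apart, 20.7 to 27.6 CPM in the other day 2 wells and 18.8 to 25.5 CPM in day 1 wells, and its change was 0.07 without that well (adjusted p = 0.41).

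The promoters of 3 of these genes are shown because they carry an E2F site, the element through which E2F factors time the genes of S phase. They run from 250 bases before the RefSeq start to 50 after it (GRCm38.p6, 5′ to 3′ in the direction of the gene), with the E2F site in capitals, searched as TTTGGCGC or TTTCCCGC on both strands. Mcm6 is at chr1:128359656-128359955, minus strand, Cdt1 at chr8:122567765-122568064, plus strand and Dnmt1, the maintenance DNA methyltransferase, at chr9:20952574-20952873, minus strand.
Mcm6: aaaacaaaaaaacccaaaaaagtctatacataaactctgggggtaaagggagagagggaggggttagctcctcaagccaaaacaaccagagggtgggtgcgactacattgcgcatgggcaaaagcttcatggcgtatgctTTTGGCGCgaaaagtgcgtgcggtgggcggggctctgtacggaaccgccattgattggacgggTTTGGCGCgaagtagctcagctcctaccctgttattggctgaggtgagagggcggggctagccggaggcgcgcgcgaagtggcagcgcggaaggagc
Cdt1: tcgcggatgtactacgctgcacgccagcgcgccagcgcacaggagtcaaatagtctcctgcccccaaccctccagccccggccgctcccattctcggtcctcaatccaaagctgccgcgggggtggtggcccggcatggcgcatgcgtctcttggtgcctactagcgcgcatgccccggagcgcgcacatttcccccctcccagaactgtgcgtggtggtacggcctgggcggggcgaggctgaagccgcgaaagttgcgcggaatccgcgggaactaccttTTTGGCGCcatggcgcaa
Dnmt1: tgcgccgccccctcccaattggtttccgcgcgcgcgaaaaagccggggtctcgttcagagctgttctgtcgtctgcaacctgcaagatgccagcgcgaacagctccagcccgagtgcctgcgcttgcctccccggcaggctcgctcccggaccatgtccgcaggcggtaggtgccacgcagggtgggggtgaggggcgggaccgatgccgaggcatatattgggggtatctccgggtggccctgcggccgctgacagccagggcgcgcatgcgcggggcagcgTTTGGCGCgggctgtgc
The Mcm6 promoter holds 2 such sites and the others 1 each. Those of Mcm6 lie before the RefSeq start, and those of Cdt1 and Dnmt1 begin 32 and 33 bases after it. Whether the start used for Dnmt1 is the main start of that gene was not checked. An E2F site was found in 12 of the 34 G1/S promoters in the table, 35.3%, against 1.80% of all 27025 promoters and 3.36% of those of the genes tested here. A match describes the letters and is not evidence of binding.

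Genes of G2/M and mitosis also fell, but by amounts that differed between cultures. Of 38 tested 29 were lower and 0 higher, with a median of -0.64. On sums 17 passed, all lower. The median was -0.08 within culture 38, -1.33 within culture 41 and -0.56 within culture 42, whereas that of the G1/S list was -0.84, -0.67 and -1.35. Within culture 38 alone 2 G2/M genes were higher and 6 lower. Without culture 38 the count was 35 lower with a median of -0.99, without culture 41 it was 3 higher and 18 lower with a median of -0.33, and without the well that stood apart 31 lower. The wells of a culture also differ in passage between the days, and the part of passage in this was not tested beyond the fit with passage as a term, which gave a median of -0.67.

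**Figure D2:**
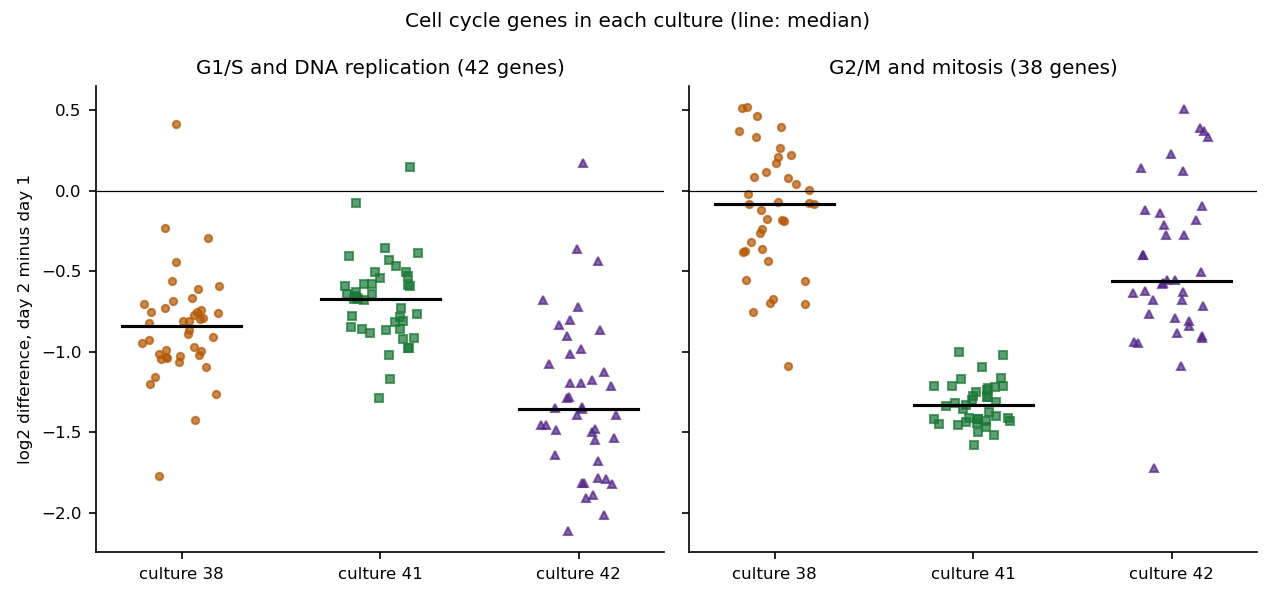
Log2 difference of day 2 from day 1 within each culture for the 42 G1/S genes and the 38 G2/M genes, a point for each gene and a line at the median. G1/S medians are below 0 in every culture, whereas the G2/M median is near 0 (-0.08) in culture 38 and -1.33 in culture 41.

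Mki67 (ENSMUSG00000031004, chr7:135689784-135716361, minus strand), the coat protein of mitotic chromosomes, had 149.9, 248 and 406 CPM in day 2 wells and 303, 576 and 743 CPM in day 1 wells (-1.0 ± 0.12, adjusted p = 1.7e-06), and Top2a, the topoisomerase that untangles them, 139, 234 and 432 CPM at day 2 and 258, 497 and 589 CPM at day 1 (-0.76 ± 0.12). Both overlapped between the days. The differences of Top2a were -0.24, -1.25 and -0.79 in cultures 38, 41 and 42. Mybl2 (-1.25 ± 0.12) and Foxm1 (-0.93 ± 0.12), transcription factors of the mitotic genes, and the checkpoint kinase Bub1 (-1.03 ± 0.11) fell, and for Mybl2 and Foxm1 the days did not overlap. Ccnb1, the mitotic cyclin B1, had 39.1, 64.8 and 148 CPM in day 2 wells and 31.6, 112 and 191 CPM in day 1 wells and did not pass (-0.27 ± 0.23, adjusted p = 0.32). Its differences were 0.33, -1.42 and 0.39 in cultures 38, 41 and 42, and without culture 41 it was higher at day 2 (0.35, adjusted p = 0.011). Ccnb2 did not pass (-0.38, adjusted p = 0.16) and passed as lower without culture 38 (-0.82).

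The promoters of Mki67 (chr7:135716330-135716629, minus strand), Top2a (chr11:99024140-99024439, minus strand) and Bub1 (chr2:127831810-127832109, minus strand) are shown for the cell cycle genes homology region (CHR), the element at which the DREAM and MuvB complexes hold G2/M genes. It was searched as TTTGAA or TTCGAA on both strands and is in capitals.
Mki67: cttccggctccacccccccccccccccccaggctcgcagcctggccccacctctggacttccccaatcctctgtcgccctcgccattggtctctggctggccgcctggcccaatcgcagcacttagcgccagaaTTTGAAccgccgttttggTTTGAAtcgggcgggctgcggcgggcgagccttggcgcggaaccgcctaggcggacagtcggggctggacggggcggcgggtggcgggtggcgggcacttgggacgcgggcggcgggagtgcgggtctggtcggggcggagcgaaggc
Top2a: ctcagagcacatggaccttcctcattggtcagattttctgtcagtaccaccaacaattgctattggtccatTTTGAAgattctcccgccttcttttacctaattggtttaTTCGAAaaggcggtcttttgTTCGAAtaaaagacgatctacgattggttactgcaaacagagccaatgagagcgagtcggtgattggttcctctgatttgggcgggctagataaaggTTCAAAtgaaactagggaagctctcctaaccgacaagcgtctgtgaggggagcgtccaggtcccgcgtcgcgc
Bub1: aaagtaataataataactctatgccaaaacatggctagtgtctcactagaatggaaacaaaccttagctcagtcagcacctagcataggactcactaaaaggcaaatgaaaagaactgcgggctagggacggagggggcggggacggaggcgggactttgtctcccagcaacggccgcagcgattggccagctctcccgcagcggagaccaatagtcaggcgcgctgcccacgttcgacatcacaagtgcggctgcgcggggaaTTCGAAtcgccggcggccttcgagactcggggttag
The Mki67 promoter holds 2 CHR elements, that of Top2a 4 and that of Bub1 1. The element was found in 24 of the 32 G2/M promoters in the table, 75.0%, against 21.7% of all promoters and 16.2% of those of the genes tested. A CCAAT box, the letters CCAAT on either strand, was in 25 of the 32, 78.1%, against 41.1% of all promoters. No G2/M promoter held the E2F site as searched.

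Replication-dependent histone genes, which are transcribed in S phase, were mostly lower at day 2. Of 63 tested 48 fell and 2 rose, with a median of -0.64. Hist1h4j had 17.3, 33.6 and 83.8 CPM in day 2 wells and 36.9, 78.5 and 140.0 CPM in day 1 wells (-1.06 ± 0.16), with overlap. Without the well that stood apart 57 fell and 3 rose. These genes are near-identical copies, their transcripts mostly lack poly(A) tails, and counts of single members are uncertain.

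Of the regulators that act before S phase, 10 fell and 2 rose of 16 tested, with a median of -0.42. Ccnd1, cyclin D1, had 167, 268 and 325 CPM in day 2 wells and 314, 592 and 1004 CPM in day 1 wells (-1.21 ± 0.19, adjusted p = 3.5e-05), and its differences were -1.78, -0.24 and -1.64 in cultures 38, 41 and 42. Ccnd2, cyclin D2 (-1.33 ± 0.17), and Rbl1, the pocket protein p107 (-1.10 ± 0.08), fell as well, Rbl1 with no overlap. Cdkn1c, the CDK inhibitor p57, rose, with 42.3, 51.3 and 112 CPM in day 2 wells and 14.5, 23.0 and 93.3 CPM in day 1 wells (1.1 ± 0.27, adjusted p = 0.0018), by 2.00 in culture 38, 1.03 in culture 41 and 0.05 in culture 42, and it did not pass on sums (adjusted p = 0.057). Cdkn1b, the inhibitor p27, and Cdk4 did not pass (-0.14, adjusted p = 0.11, and 0.15, adjusted p = 0.1).

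Genes of cholesterol synthesis rose together. Of 20 enzymes of cholesterol synthesis 16 were higher at day 2 and 0 lower, on wells and on sums, with a median of 0.46. Hmgcs1 (ENSMUSG00000093930, chr13:119690379-119708260, plus strand), which makes HMG-CoA at the head of the pathway, had 1459, 2012 and 2180.5 CPM in day 2 wells and 975, 1144 and 1667 CPM in day 1 wells (0.61 ± 0.08, adjusted p = 3.7e-06), with overlap. The next genes act after lanosterol. Ebp, the sterol isomerase, had 23.3, 36.1 and 38.7 CPM at day 2 and 12.6, 16.6 and 17.6 CPM at day 1 (1.07 ± 0.09) and did not overlap, and Hsd17b7 (0.87 ± 0.10) and Sc5d (0.69 ± 0.11) rose too. Sqle, the squalene epoxidase, and Tm7sf2, a sterol reductase, were among the 4 that did not pass (0.13, adjusted p = 0.11, and 0.09, adjusted p = 0.32), Sqle passing without the well that stood apart (0.16, adjusted p = 0.022).

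The Hmgcs1 promoter (chr13:119690101-119690400, plus strand) is shown for its sterol element, in capitals, the type of site that SREBP factors use, searched as TCACNCCAC on both strands.
Hmgcs1: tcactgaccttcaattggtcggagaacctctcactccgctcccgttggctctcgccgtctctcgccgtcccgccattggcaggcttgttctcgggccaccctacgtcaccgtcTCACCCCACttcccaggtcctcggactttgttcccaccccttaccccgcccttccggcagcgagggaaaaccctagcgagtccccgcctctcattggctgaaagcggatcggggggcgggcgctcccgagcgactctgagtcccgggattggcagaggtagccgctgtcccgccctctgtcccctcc
It was the only 1 of the 15 cholesterol synthesis promoters in the table with this spelling, against 1.44% of all promoters. The CCAAT box was in 14 of the 15, 93.3%, against 41.1% of all promoters. No promoter of the G1/S, G2/M, cholesterol synthesis or myelin lists held the direct repeat that thyroid hormone receptors bind, in the spelling searched. That spelling was in 0.0148% of all promoters and in 0 of those of the genes tested, so its absence says nothing about these lists.

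Of the genes for uptake, export and sensing of cholesterol 7 rose and 1 fell of 15 tested (5 and 0 on sums), with a median of 0.21. Npc1 (0.93 ± 0.11) and Npc2 (0.92 ± 0.09), which carry cholesterol out of lysosomes, the exporter Abca1 (1.26 ± 0.14) and the SREBP anchor Insig1 (0.62 ± 0.09) rose, while Scap, the SREBP escort, did not pass (-0.07, adjusted p = 0.5). Enzymes of galactolipid, sphingolipid and fatty acid synthesis had a median of 0.77, with 12 higher and 1 lower of 19. Ugt8a, which makes galactosylceramide, had 809, 1503 and 1656 CPM in day 2 wells and 206, 310.3 and 375 CPM in day 1 wells (2.20 ± 0.07, adjusted p = 1.1e-13), and Gal3st1, which sulfates it, 100, 165 and 171 CPM at day 2 and 35.4, 55.7 and 79.4 CPM at day 1 (1.44 ± 0.08). Neither gene overlapped between the days, nor did the fatty acid elongase gene Elovl7 (2.45 ± 0.08). Degs1, the ceramide desaturase, rose by 1.35 ± 0.15, with overlap, and the fatty acid synthase gene Fasn did not pass (0.22, adjusted p = 0.076), though it did without culture 38 (0.32).

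Genes that respond to receptor tyrosine kinases through ERK were lower at day 2. Of 16 tested 15 fell and 0 rose (12 on sums), with a median of -1.02. Spry4, a feedback inhibitor of growth factor receptors, had 4.82, 6.74 and 16.6 CPM in day 2 wells and 14.4, 23.1 and 45.3 CPM in day 1 wells (-1.64 ± 0.13). Spred2, an inhibitor of RAF activation, had 3.77, 5.12 and 8.70 CPM at day 2 and 10.0, 14.7 and 23.2 CPM at day 1 (-1.56 ± 0.18), and Dusp6, the ERK phosphatase, fell by 1.37 ± 0.12. Of these 3 genes Spred2 alone did not overlap between the days. The ETS factor Etv4 fell by 1.31 ± 0.22, and the member that did not pass was Dusp5 (-0.16, adjusted p = 0.49), which passed as lower without the well that stood apart (-0.40).

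Immediate early genes fell as well, 12 lower and 1 higher of 16, with a median of -0.81 (9 and 1 on sums). Egr1, the most reduced of all genes named here on the combined rule, had 3.38, 6.74 and 11.4 CPM in day 2 wells and 35.4, 45.1 and 111 CPM in day 1 wells (-3.13 ± 0.17, adjusted p = 6.3e-11), with no overlap. Egr3 had 0.113, 0.254 and 0.493 CPM at day 2 and 0.795, 3.30 and 8.39 CPM at day 1 (-3.31 ± 0.33) and Egr2 0.113, 0.748 and 3.40 CPM at day 2 and 1.04, 5.30 and 9.78 CPM at day 1 (-2.30 ± 0.37). The nuclear receptor Nr4a3 fell by 1.37 ± 0.21, while its relative Nr4a2 did not pass (-0.22, adjusted p = 0.26).

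Among genes of thyroid hormone signalling 4 rose and 5 fell of 13 tested, with a median of 0.07 (-0.13 without culture 38). Thra, which encodes the main thyroid hormone receptor of the lineage, had 262, 476 and 498 CPM in day 2 wells and 77.1, 142.5 and 173 CPM in day 1 wells (1.69 ± 0.07, adjusted p = 6.8e-13), and the hormone-induced factor Klf9 49.6, 123 and 127 CPM at day 2 and 33.3, 38.9 and 47.4 CPM at day 1 (1.28 ± 0.12). Both were apart in all wells. The other receptor gene, Thrb, was lower, with 0.226, 0.628 and 0.901 CPM in day 2 wells and 0.923, 1.31 and 1.85 CPM in day 1 wells (-1.14 ± 0.19). The receptor partner Rxrb (0.16, adjusted p = 0.098) and Thrsp (0.07, adjusted p = 0.63) did not pass.

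Other signalling lists moved in parts. In the Notch list 3 rose and 5 fell of 20 (3 and 11 without culture 38), below the background shares on both sides. The ligand Dll3 (-1.14 ± 0.21), the ligase Dtx4 (-0.97 ± 0.07) and the ligand Dner (-0.93 ± 0.08) fell while the target Hey2 rose (0.92 ± 0.16). In the BMP list 13 fell and 3 rose of 21, with a median of -0.49. Bmp7 had 19.1, 25.0 and 27.9 CPM in day 2 wells and 55.3, 65.2 and 75.0 CPM in day 1 wells (-1.45 ± 0.07). The inhibitor genes Smad7 and Smurf1 rose, Smad7 with 16.5, 44.6 and 48.5 CPM in day 2 wells and 2.77, 5.31 and 6.81 CPM in day 1 wells (2.90 ± 0.10, adjusted p = 1.4e-13) and the ligase gene Smurf1 by 1.91 ± 0.10. Wells did not overlap for Bmp7, Smad7 and Smurf1. The shared mediators Smad4 (-0.03, adjusted p = 0.6) and Smad5 (0.03, adjusted p = 0.68) did not pass.

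In the Wnt list 19 fell and 8 rose of 33, with a median of -0.33. The ligand Wnt3 had 2.18, 2.77 and 5.86 CPM in day 2 wells and 0.228, 0.334 and 0.581 CPM in day 1 wells (3.18 ± 0.19), and the receptors Fzd8 36.8, 63.4 and 72.2 CPM at day 2 and 12.2, 13 and 13.9 CPM at day 1 (2.10 ± 0.10) and Fzd5 rose with it (1.71 ± 0.12), all with no overlap. The secreted antagonist Sfrp2 fell by 1.67 ± 0.22, and the receptor Fzd1 did not pass (0.02, adjusted p = 0.87). Of 18 integrin and laminin genes 7 rose and 8 fell. Itga2 (3.24 ± 0.33) and Itgb3 (1.5 ± 0.15) were higher at day 2 in every well, and Itga8 (-1.60 ± 0.30) and Lama1 (-1.63 ± 0.18) lower in every well. The difference of Itga8 was -0.25 within culture 41, against -2.99 in culture 38.

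Genes of the cytoskeleton mostly rose or did not pass. In the actin list 16 rose and 1 fell of 25, with a median of 0.33, and in the microtubule list 15 rose and 5 fell of 27, with a median of 0.59. Arpc1b, a subunit of the ARP2/3 complex that branches actin, had 618, 682 and 784 CPM in day 2 wells and 85.2, 120.0 and 154 CPM in day 1 wells (2.59 ± 0.11, adjusted p = 2.6e-12). The GTPase gene Rac1 (0.97 ± 0.05), Arpc5 (0.92 ± 0.07) and the actin-severing Dstn (0.90 ± 0.07) rose less, and for each of these 4 genes the days did not overlap. Map1b, a microtubule-associated protein of growing processes, had 375, 1994 and 2375 CPM in day 2 wells and 99.7, 351 and 561 CPM in day 1 wells (2.24 ± 0.12), with overlap, and Map7, a kinesin activator, 9.02, 25.2 and 43.3 CPM at day 2 and 2.15, 3.71 and 4.00 CPM at day 1 (2.68 ± 0.16), with none. The tubulins Tubb2a (-0.14, adjusted p = 0.17) and Tubb2b (-0.13, adjusted p = 0.28) did not pass.

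Potassium channel and glutamate receptor genes, through which OPCs respond to neuronal activity, were mostly lower, with 18 down and 6 up of 30 and a median of -0.67. The channel Kcnk10 had 10.2, 18.0 and 27.9 CPM in day 2 wells and 33.8, 43.3 and 51.4 CPM in day 1 wells (-1.24 ± 0.12), and the metabotropic receptor Grm3 2.35, 4.63 and 9.63 CPM at day 2 and 10.1, 11.1 and 15.2 CPM at day 1 (-1.22 ± 0.17). Against this, Grm7, another metabotropic receptor, had 111, 139 and 186 CPM in day 2 wells and 5.15, 14.4 and 22.5 CPM in day 1 wells (3.57 ± 0.21, adjusted p = 1.8e-10). The wells of these 3 genes did not overlap. Kcna1 rose by 1.89 ± 0.14, and Kcnj10, the inward rectifier Kir4.1, did not pass (0.18, adjusted p = 0.41).

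Chromatin genes as lists did not exceed the background in either direction by much. Of 23 Polycomb genes 6 rose and 8 fell, with a median of -0.08. Of 25 modifiers of DNA and histones 4 rose and 7 fell, fewer than the background on both sides, with a median of 0.07 (-0.04 without culture 38 and -0.01 without culture 42). Single members moved clearly. Hdac11, a deacetylase, had 28.3, 35.4 and 55.6 CPM in day 2 wells and 9.47, 13.5 and 17.9 CPM in day 1 wells (1.40 ± 0.14). The DNA methyltransferases moved apart, Dnmt3a with 151, 259.6 and 277 CPM at day 2 and 105, 119 and 138 CPM at day 1 (0.91 ± 0.08) and Dnmt1, a member of the G1/S list too, with 136, 171 and 185 CPM at day 2 and 237, 277 and 342 CPM at day 1 (-0.73 ± 0.07), and neither overlapped. The PRC2 accessory gene Phf19 (-0.75 ± 0.12) and the PRC1 genes Pcgf2 (-0.95 ± 0.17) and Cbx7 (-0.84 ± 0.18) fell, Phc2 rose (0.71 ± 0.06), and the methyltransferase Ezh1 did not pass (0.02, adjusted p = 0.86).

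Of the stress lists, the integrated stress response and amino acid list had 12 lower and 6 higher of 24 and a median of -0.44. The pseudokinase Trib3 (-1.50 ± 0.21), Pck2 of mitochondrial gluconeogenesis (-1.43 ± 0.12) and the amino acid carrier Slc7a5 (-1.38 ± 0.12) fell, while the reelin receptor Vldlr had 171, 258 and 298 CPM in day 2 wells and 77.8, 88.9 and 118 CPM in day 1 wells (1.34 ± 0.07). Among 19 p53 targets 11 fell and 3 rose, with a median of -0.51. Plk2 (-0.98 ± 0.07), Fas (-0.88 ± 0.19) and Zmat3 (-0.82 ± 0.19) were lower and the ribonucleotide reductase subunit Rrm2b higher (0.77 ± 0.07). Of 18 interferon response genes 9 were tested, with 4 lower, among them the antiviral Rsad2 (-1.19 ± 0.14) and Ifit2 (-1.12 ± 0.11), and 2 higher.

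Regional identity genes were lower or did not pass. Of 21 Hox genes 14 were tested and 11 fell (7 without culture 38, 2 on sums), with a median of -0.73. Hoxa7 had 0.531, 3.68 and 10.1 CPM in day 2 wells and 0.856, 14.8 and 27 CPM in day 1 wells (-1.46 ± 0.30), its differences were -2.86, -0.53 and -0.60 in cultures 38, 41 and 42, and it did not pass on sums (adjusted p = 0.078). Hoxd4 did not pass (-0.13, adjusted p = 0.52). Of 11 hindbrain genes 6 fell, with Pax3 at 3.87, 4.88 and 5.77 CPM in day 2 wells and 7.35, 8.81 and 10.3 CPM in day 1 wells (-0.84 ± 0.09) and Irx1 at 14.5, 19.6 and 34.7 CPM at day 2 and 24.6, 30.8 and 39.5 CPM at day 1 (-0.63 ± 0.13). Of the 10 telencephalic genes only 3 were tested, and Lhx2, which was low, fell by 1.18 ± 0.10.

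Of 12 astrocyte genes tested 4 fell and 1 rose (2 and 0 on sums), with a median of -0.39 (0.00 without culture 38). The glutamate transporters Slc1a2 and Slc1a3, which OPCs express too, were lower in every day 2 well, at 57.0, 88.9 and 139.5 CPM against 157, 203 and 271 CPM in day 1 wells (-1.31 ± 0.15) and at 21.7, 48.5 and 53.8 CPM against 54.5, 77.1 and 137 CPM in day 1 wells (-1.06 ± 0.17). Aqp4 was at 0 in 7 of the 17 libraries and did not pass (adjusted p = 0.052), though it passed as higher without the well that stood apart (adjusted p = 0.046), and its differences were 0.00, 3.88 and -0.03 in cultures 38, 41 and 42. Of 10 neuron genes 8 fell and 1 rose (4 and 1 on sums). The gene that rose was Elavl3, which encodes an RNA-binding protein, with 94.5, 330.1 and 362 CPM in day 2 wells and 39.3, 59.3 and 77.1 CPM in day 1 wells (2.22 ± 0.12, adjusted p = 1.0e-10). The neuronal gene Rbfox3 had at most 0.336 CPM in any well. Of 13 microglia genes and of 17 vascular genes 1 each passed the filter. Of 5 Schwann cell genes tested 4 fell (2 without culture 42 and 2 on sums), among them Egr2. Of 13 mitochondrially encoded genes 1 rose and 2 fell (1 and 4 on sums, and 1 and 0 without culture 41 or without culture 42). Their median was -2.46 within culture 38, 0.13 within culture 41 and -0.25 within culture 42. The well that stood apart had 0.492% of its counts from all genes with mt- symbols, a wider set than these 13. The median over all cultures was -0.43, and it was -0.22 without that well, where 1 rose and 3 fell, and -0.07 without culture 38.

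The 12 largest decreases under the rule that chose the increases included Egr1 and Egr2. Slc7a3, a carrier of cationic amino acids, had 0.796, 2.07 and 2.74 CPM in day 2 wells and 3.82, 9.05 and 24.3 CPM in day 1 wells (-2.53 ± 0.24). Ntrk3, the receptor of neurotrophin-3, had 20.7, 28.6 and 46.8 CPM at day 2 and 65.6, 114 and 149 CPM at day 1 (-1.80 ± 0.14, adjusted p = 9.2e-09), and the neurosecretory gene Vgf 0.788, 1.54 and 3.90 CPM at day 2 and 4.13, 7.56 and 12.9 CPM at day 1 (-2.16 ± 0.18). Neither these nor the phosphoinositide phosphatase Inpp4b (-2.01), the F-BAR protein Pstpip2 (-1.94), Lingo3 (-1.85), the vesicle protein Sv2c (-1.94) and the NKG2D ligand Raet1d (-1.79) overlapped between the days. Pnlip, a lipase, fell by 2.33 ± 0.37 with overlap, and the histone gene Hist1h2br fell by 2.01 ± 0.58, which is uncertain for the reason given above. The difference of Sv2c was -0.27 within culture 41, against -2.65 within culture 38.

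Of the 10006 genes that passed, 9353 had the same sign in all 3 cultures (4647 higher, 4706 lower). Newly formed oligodendrocyte, myelin, cholesterol synthesis and galactolipid medians were above 0 and OPC, G1/S and ERK feedback medians below 0 in every culture. Culture 38 had the lowest median of the myelin list (1.64, against 2.24 in culture 41 and 2.03 in culture 42), and within it alone 2125 genes rose and 1859 fell.

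**Figure D3:**
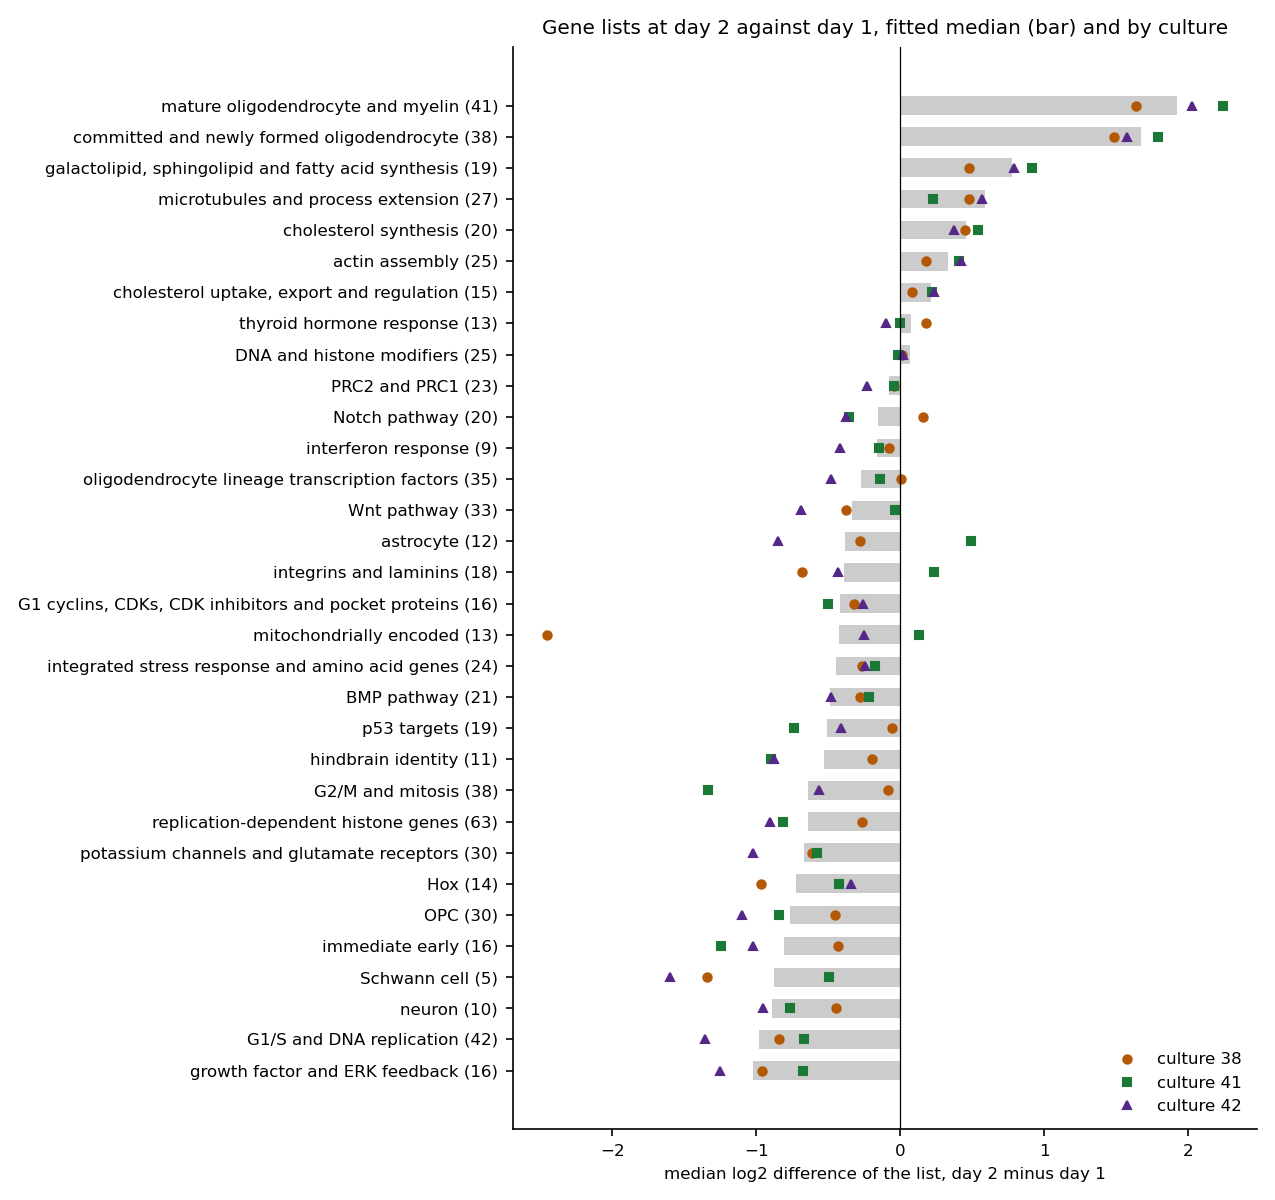
Median log2 fold change of day 2 over day 1 for each gene list except the microglia, vascular and telencephalic lists. The grey bar is from the fit of all 17 libraries and the points from the difference within cultures 38, 41 and 42. The myelin list reaches 1.92 and the ERK feedback list -1.02, and the points of the G2/M list spread between -0.08 and -1.33.

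The same step was measured in K27M brainstem and in control telencephalon, and the difference between changes was tested in a fit of all libraries of the series. Against control telencephalon, 5771 of 19769 genes had a different change in control brainstem, 29.2% (3343 with a higher and 2428 with a lower change in brainstem). The split depended on the scaling, at 2630 higher and 2763 lower with DESeq2's size factors. On sums of wells 330 of 23003 genes passed (110 and 220), which is the background for the list counts on sums. Without culture 42 the count with a lower change was 1324. Mbp and Enpp6 had larger changes in brainstem when wells were tested, and neither difference passed on sums. The change of Mbp was 5.47 ± 0.56 in brainstem and 3.19 ± 0.49 in telencephalon, a difference of 2.28 (adjusted p = 0.0047 on wells and 0.26 on sums). Enpp6 changed by 2.61 ± 0.38 in brainstem and by 0.98 ± 0.35 in telencephalon, a difference of 1.63 (adjusted p = 0.0087 on wells and 0.3 on sums). As lists, 24 of the 38 newly formed oligodendrocyte genes had a higher and 2 a lower change in brainstem, and 14 and 2 of the 41 myelin genes, but on sums of wells these counts were 0 and 0, and 1 and 0.

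The median change of the cholesterol synthesis list had opposite signs in the regions. It was 0.45 in brainstem and -0.18 in telencephalon, and 16 of the 20 enzymes had a higher change in brainstem and 0 a lower one (2 and 0 on sums). The change of Hmgcs1 was 0.60 ± 0.10 in brainstem and 0.02 ± 0.10 in telencephalon, a difference of 0.58 (adjusted p = 0.0011 on wells and 0.26 on sums). In the ERK feedback list 11 of 16 genes had a lower change in brainstem and 0 a higher one (1 and 0 on sums), with medians of -1.04 in brainstem and -0.20 in telencephalon. The potassium channel and glutamate receptor list had a lower change in brainstem in 16 of 30 genes (2 on sums), with medians of -0.66 in brainstem and 0.14 in telencephalon, and the astrocyte list in 7 of 12 (1 on sums), with the change of Slc1a2 at -1.34 in brainstem and 1.27 in telencephalon (adjusted p of the difference on sums = 0.022). Of the 38 G2/M genes 23 had a higher change in brainstem, with medians of -0.62 in brainstem and -1.48 in telencephalon. That count was 0 without culture 38, 32 without culture 41, 21 without culture 42, 13 without the well that stood apart and 0 on sums.

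**Figure D4:**
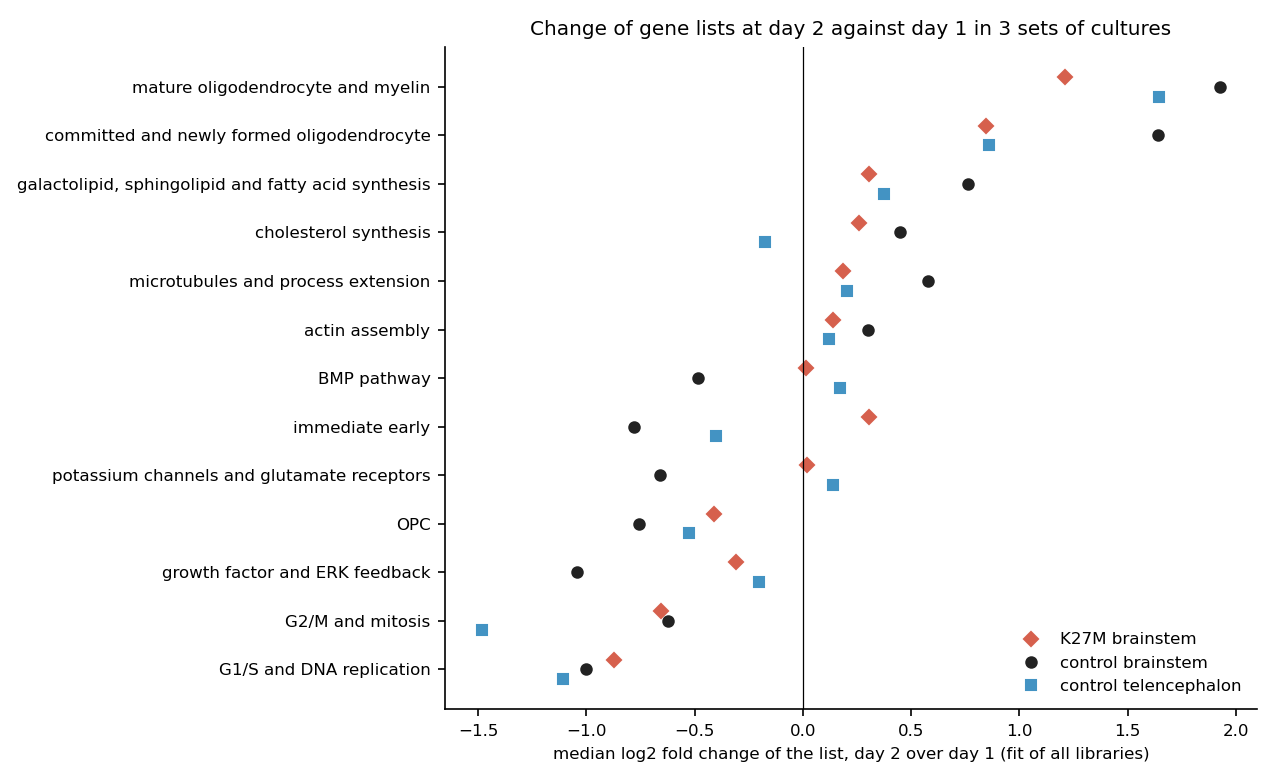
Median log2 fold change of day 2 over day 1 for 13 gene lists in K27M brainstem, control brainstem and control telencephalon, from the fit of all libraries of the series. In control brainstem the newly formed oligodendrocyte list stands at 1.64, against 0.85 in K27M brainstem and 0.86 in control telencephalon, and cholesterol synthesis is above 0 in both brainstem groups and at -0.18 in telencephalon.

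Between genotypes, 5658 of 19769 genes, 28.6%, had a different change in K27M brainstem than in control brainstem (2436 higher, 3222 lower in K27M), and 543 of 23003 on sums (356 and 187). Without culture 41 it was 3199 (1348 and 1851). Mbp and Enpp6 had smaller changes in K27M when wells were tested, and neither difference passed on sums. Mbp changed by 2.82 ± 0.48 in K27M and by 5.47 ± 0.56 in control wells, a difference of -2.64 (adjusted p = 0.0012 on wells and 0.17 on sums), and Enpp6 by 1.18 ± 0.37 in K27M and 2.61 ± 0.38 in control wells, a difference of -1.43 (adjusted p = 0.028 on wells and 0.34 on sums). In the newly formed oligodendrocyte list 22 genes had a lower and 1 a higher change in K27M, and in the myelin list 16 and 2, against 0 and 0, and 1 lower and 0 higher, on sums. Immediate early genes had a higher change in K27M in 13 of 16 genes and a lower one in 0 (2 and 0 on sums, and 5 and 0 without culture 41), with a median of 0.31 in K27M and -0.78 in control wells. The change of Egr1 was 1.08 ± 0.44 in K27M and -3.03 ± 0.45 in control wells, a difference of 4.11 (adjusted p = 2.7e-07 on wells and 0.028 on sums). The potassium channel and glutamate receptor list had a higher change in K27M in 11 and a lower one in 4 of 30 genes (1 and 0 on sums). For the G2/M list the count was 0 in either direction, but 24 lower in K27M without culture 41.

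The step between day 1 and day 2 can be set beside its neighbours in control brainstem, which share its day 1 and day 2 libraries, so that only each step's own values are given. The log2 fold change of Enpp6 was 3.44 at day 1 over day 0, 2.61 at day 2 over day 1 and -2.32 at day 5 over day 2. That of Mog over the same steps was 2.17, 3.74 and 3.53. For Pdgfra it was -0.63, -1.07 and -1.21, and for Gpr17, which did not pass in the middle step in the 17 libraries, 2.80, -0.21 and -2.82. As list medians, newly formed oligodendrocyte genes stood at 1.48, 1.64 and -1.32, myelin genes at 0.29, 1.93 and 2.49, and OPC genes at -0.04, -0.76 and -0.87. Cholesterol synthesis stood at 0.53, 0.45 and -0.64.

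**Figure D5:**
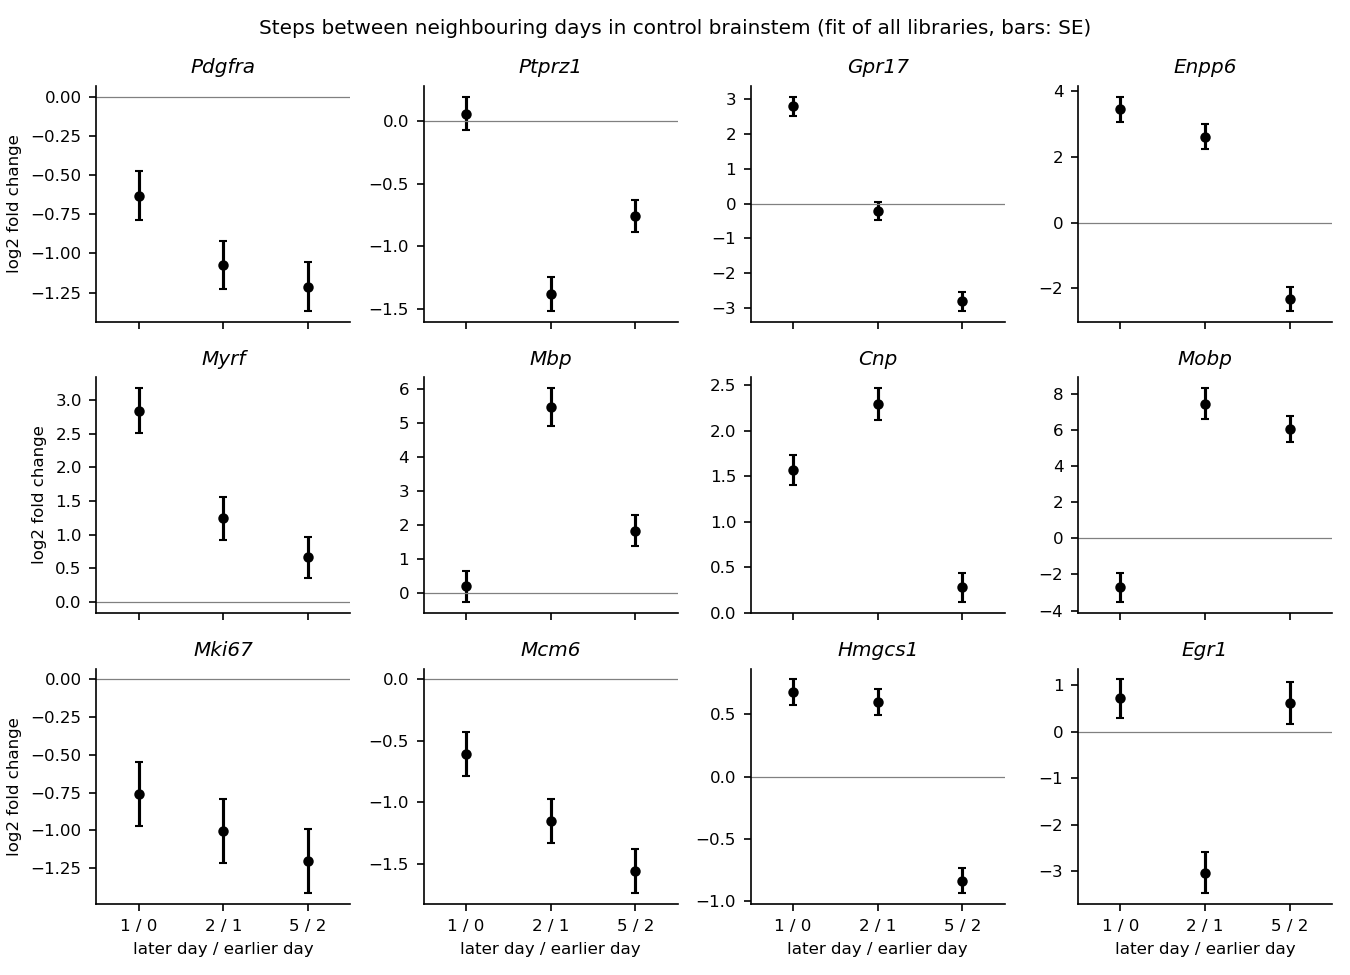
Log2 fold change with its standard error for 12 genes in control brainstem at day 1 over day 0, day 2 over day 1 and day 5 over day 2, from the fit of all libraries of the series (n = 9, 8, 9 and 9 wells at days 0, 1, 2 and 5). Enpp6 is above 0 at day 2 over day 1 and below 0 at day 5 over day 2, and Pdgfra is below 0 at every step.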

How the data were processed

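Total RNA libraries (TruSeq Stranded Total RNA, paired-end) were quantified by the authors with Salmon (version 1.10.1 in the submitters' processing notes) on mouse transcripts of GRCm38 (mm10). The deposited tables give each transcript an estimated count, a TPM and an effective length, which the authors' quantification derived from fragments assigned by model. TPM was not tested, and the effective length entered an alternative only. GENCODE M21 gave a gene, 54127 in all, for 139821 of the 141084 transcripts, and the rest held 0.252 to 0.377% of a library's counts. Estimated counts were summed by gene and rounded.

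The main test was edgeR 4.0.16 (R 4.3.3): TMM scaling, filterByExpr, a quasi-likelihood F test on the 17 libraries with culture as a block, and Benjamini-Hochberg adjustment over all genes tested, with a threshold of 0.05. CPM values are TMM-scaled. Differences between changes, and the neighbouring steps, came from a fit of all libraries of the series with the 12 culture lines as a block. The code was tested on simulated counts. Wells of a culture share their cells, so that well-level p-values reflect well-to-well variation that may be technical, and sums by culture and day were tested as an alternative. Other alternatives were DESeq2 1.42.0 and its size factors, filters, effective-length offsets, a fold of 1.1, passage as a term, a replicate block, and leaving out each culture and library.

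Gene lists and members were chosen with earlier results of these data known, and lists are described by counts and medians. Named were the key markers whatever their result, the 12 highest and 12 lowest protein-coding genes (passing on wells and on sums, same sign in 3 cultures, mean of at least 5 CPM, no provisional names), and for each list up to 4 members with the largest change that passed with the same sign in every culture and up to 2 that did not pass (mean of at least 1 CPM each). Some genes that the rule names are not reported here. Promoters are from RefSeq's table for GRCm38.p6, matched by symbol.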

Additional observations from a re-analysis of the deposited data

Results flagged for a closer look

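The first day 2 well of culture 38 was far from the other day 2 wells on 3 measures. Its share of counts from Rn7s1 was 40.6%, its share from protein-coding genes 45.2% and its median correlation with the other libraries 0.924. In all 58 measures within a day's wells were examined in this way. These 3 stood out, about the number that chance gives at 1 in 20 for separate measures and separate wells. The wells of a day come from 3 cultures, so that rate need not hold and the count does not decide. In the other day 2 wells Rn7s1 held 12.9 to 25.5% and protein-coding genes 62.0 to 76.6% of counts. All 3 belong to this well, and shares of counts in 1 library are tied to each other, so the 3 are not separate.

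Of 23 key markers, 10 had a different day 2 over day 1 change in control brainstem than in control telencephalon by the test of the difference. In log2 units the change in brainstem was higher by 2.28 for Mbp, 1.89 for Mog, 1.51 for Cnp, 1.63 for Enpp6, 1.22 for Nkx6-2, 0.79 for Fyn, 0.79 for Top2a, 1.21 for Ccnb1 and 0.58 for Hmgcs1, and that of Ptprz1 differed by -0.65. These tests count wells. On sums of wells by line and day 0 of the 23 passed in edgeR's test, and 5 had an unadjusted p under 0.05. The count of G2/M genes with a higher change in brainstem, the list that holds Top2a and Ccnb1, was 23 on wells and 0 without culture 38.

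Between genotypes, 7 of the 23 differed in their change. The difference of K27M from control brainstem was -2.64 for Mbp, -1.58 for Mog, -1.25 for Cnp, -1.43 for Enpp6, -1.86 for Nkx6-2, -0.83 for Fyn and 0.96 for Ptprz1. On sums of wells 0 of the 23 passed in edgeR's test here too, and 5 had an unadjusted p under 0.05.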

How the results depend on the processing

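The count of 10006 genes stayed within 1.5 times under DESeq2's size factors (9990), DESeq2 (10949, or 7967 past a fold of 1.1), edgeR's test past a fold of 1.1 (8864), effective-length offsets (9272), no filter (10421), a mean of at least 1 CPM (9145), no culture block (8591), passage as a term (10057) and the fit of all libraries (12056). With wells summed 3688 genes were higher and 3322 lower. Culture 38 alone gave 3984 (2125 higher, 1859 lower). Leaving out a culture gave 7954 to 10411 (3960 to 5010 higher, 3953 to 5401 lower), and a library 9266 to 10801 (4550 to 5178 higher, 4716 to 5623 lower). Same-numbered wells of the 2 days correlated between -0.23 and 0.28 in their deviations, and wells with unlike numbers between -0.23 and 0.21. The deviations are from means of 2 or 3 wells, too few to decide whether the numbers pair the wells. A replicate block gave 9057 genes (4496 higher, 4561 lower), and 5242 and 5644 for the differences from telencephalon and between genotypes. The difference from telencephalon gave 1865 higher with no filter, 330 on sums (110 higher, 220 lower) and 4027 to 6007 without a culture (2352 to 3143 higher, 1324 to 2864 lower). That between genotypes gave 543 on sums (356 higher, 187 lower) and 3199 to 6392 without a culture (1348 to 3037 higher, 1851 to 3355 lower). Among 215 named genes, Ccnb1 ranged between -0.68 without culture 38 and 0.35 without culture 41, Prx turned to 0.053 in culture 38 alone, and with wells summed 205 stayed on their side of the threshold. Chosen after seeing the data, fits without the first day 2 well of culture 38 gave 10951 genes with passage, 7264 on sums, and 5400 and 5590 for the differences. The causes were not tested. A replicate here is a well, day and passage change together within cultures, and depth limits genes with few reads, such as Casr at day 1.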
